A study of Sus scrofa with 18 samples.

Results

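Cells make cholesterol from acetyl-CoA through the mevalonate pathway, which ends in squalene, and a series of sterol steps that turn squalene into cholesterol. The transcription factor encoded by SREBF2 turns on the genes of these enzymes and of sterol uptake when membranes are short of sterol, and INSIG proteins hold that factor in the endoplasmic reticulum when sterol is plentiful. A cleaving embryo first relies on RNA and lipid stored by the oocyte, and in the pig its own genome becomes active around the 4-cell stage.

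The set followed here was 7 genes of cholesterol synthesis and its control: HMGCS1, IDI1, SQLE, LSS, DHCR7, SREBF2 and INSIG1. Of these 7, 6 had a row in the gene tables, each of which held 24358 genes. HMGCS1 (ENSSSCG00000016872), SQLE (ENSSSCG00000005970), DHCR7 (ENSSSCG00000021181), SREBF2 (ENSSSCG00000026092) and INSIG1 (ENSSSCG00000016420) were found by the tables' own gene names. IDI1 (ENSSSCG00000029066) was found by its gene ID through the reference gene table, and LSS, which closes the sterol rings, was not analysed here.

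The libraries came from pig embryos cloned by somatic cell nuclear transfer. All groups shared the same origin: oocytes of pre-pubertal slaughterhouse ovaries, matured in vitro and enucleated, each received a donor cell cultured from ear tissue of Diannan miniature pigs, and were activated by an electric pulse and cytochalasin treatment. In the vitrified groups the presumptive zygotes were vitrified after activation on a Cryotop carrier with ethylene glycol and stored in liquid nitrogen. They were then warmed and cultured in PZM-3, a porcine zygote medium. In the fresh groups zygotes went on in the same medium without vitrification. Each group had 3 libraries: vitrified and fresh 2-cell embryos at 24 h after activation (4 embryos per library), vitrified and fresh 4-cell embryos at 48 h (2 embryos per library) and vitrified and fresh blastocysts at 144 h (1 embryo per library). How many donor cell cultures were used was not stated, and a blastocyst library is a single embryo, so its spread is that between embryos. In these bulk libraries, fewer cells of a type and less RNA per cell cannot be told apart.

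Levels are in FPKM, a read density scaled to transcript length and to the size of the library, which carries no read counts, so the depth behind each value is unknown and no counting interval can be given. Between 7551 and 8841 genes reached 1 FPKM in a library. Oocyte marker genes summed to 1277 to 5921 FPKM in the 2-cell and 4-cell libraries and to 1.21 to 6.73 FPKM in blastocysts, while trophectoderm markers, led by KRT8 and KRT18, summed to 1947 to 3939 FPKM in blastocysts. Of the pluripotency markers, NANOG and SOX2 together summed to at most 3.95 FPKM in any blastocyst, and POU5F1 was not analysed here. Fibroblast markers of the donor cell type stayed at 7.95 FPKM or less in sum. Vitrified 4-cell library 3 stood apart: its mean correlation with the other 4-cell libraries was 0.763, against 0.869 to 0.892 for the others of that stage, and values that moved much without it are given both ways. Some markers also set it apart. It held NANOG at 289 FPKM, against 8.97 to 29.9 FPKM in the other 4-cell libraries, TFAP2C at 175 FPKM, against 4.32 to 53.2 FPKM, and OOEP at 39.8 FPKM, against 330 to 788 FPKM. Of the other oocyte markers, GDF9 (41.3 FPKM, against 63.0 to 145 FPKM) and ZP3 (16.3 FPKM, against 20.5 to 54.1 FPKM) were also lowest in it. So was ZAR1, by little (1.844 FPKM, against 1.846 to 4.52 FPKM), while its BMP15, KPNA7 and MOS levels lay within the range of the others.

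The 6 genes fell into different patterns over the stages. IDI1 was high in blastocysts and low before, DHCR7 and INSIG1 were near 0 until the blastocyst, SQLE was high in 2-cell embryos, low in 4-cell embryos and uneven among blastocysts, HMGCS1 stayed between 1.14 and 18.7 FPKM throughout, and SREBF2 was under 1 FPKM in 17 of 18 libraries. None of those tested was called between vitrified and fresh embryos at any stage. SREBF2 was not tested, and DHCR7 and INSIG1 were tested in blastocysts only. The plot of levels by library shows these patterns for each gene.

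**Figure D1:**
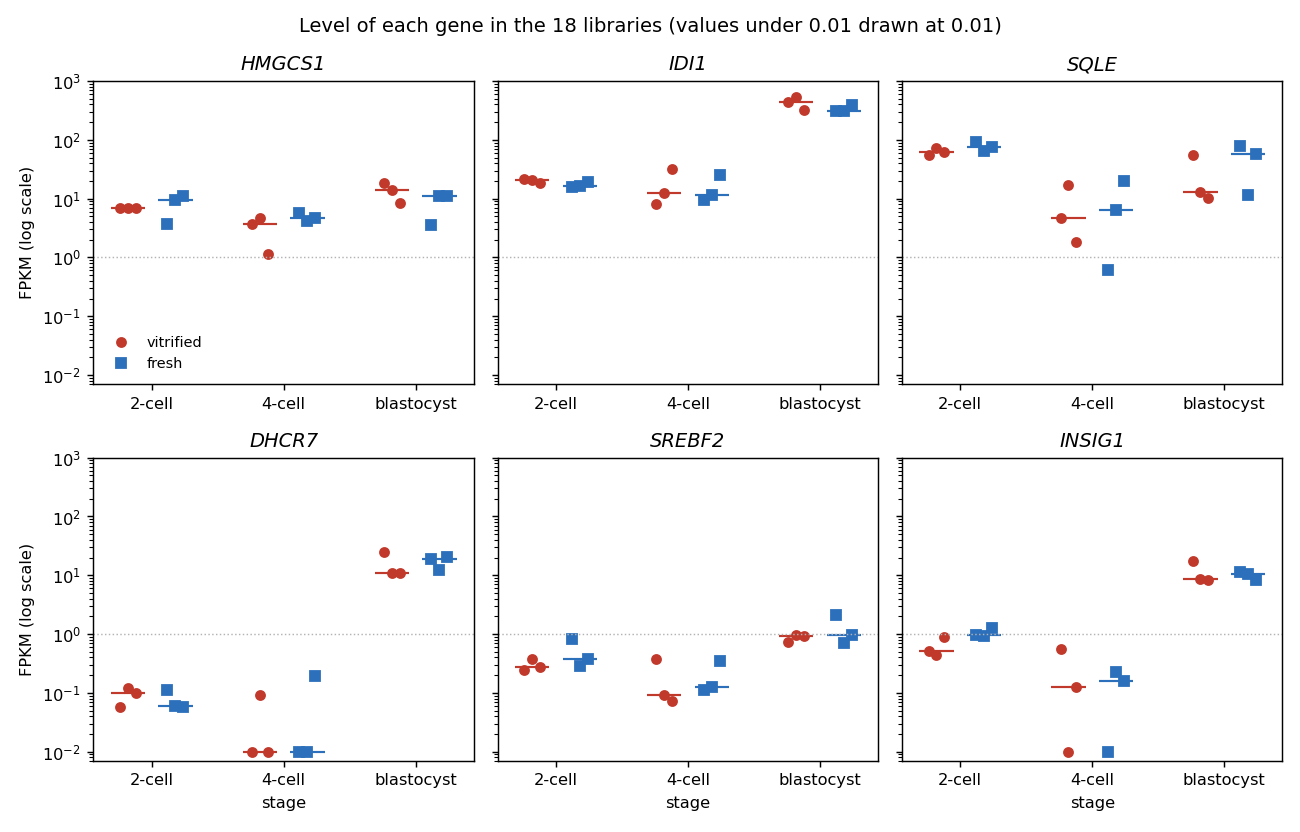
FPKM (log axis) of HMGCS1, IDI1, SQLE, DHCR7, SREBF2 and INSIG1 in each of 18 libraries, by stage, with vitrified embryos as circles left of fresh embryos as squares; short lines are group medians, the dotted line is 1 FPKM and values under 0.01 are drawn at 0.01. IDI1 lay at 313 to 538 FPKM in every blastocyst and at 32.0 FPKM or less in every earlier library, and vitrified and fresh points overlapped at each stage except for INSIG1 in 2-cell embryos.

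HMGCS1 encodes the cytosolic synthase that joins acetyl-CoA and acetoacetyl-CoA, the step before HMG-CoA reductase. Its level was 6.81, 6.92 and 6.92 FPKM in vitrified 2-cell embryos, against 3.64, 9.48 and 11.3 FPKM in fresh ones. In 4-cell embryos it was 3.77, 4.74 and 1.14 FPKM after vitrification, against 5.72, 4.12 and 4.63 FPKM in fresh embryos. Blastocysts held 18.7, 14.1 and 8.48 FPKM in the vitrified group, against 3.53, 10.97 and 11.3 FPKM in the fresh group. The vitrified 2-cell libraries were nearly equal while the fresh ones spread around them, the lowest 4-cell value was that of vitrified library 3, and the groups overlapped at all stages. Among genes with a median of at least 1 FPKM at the stage, HMGCS1 stood above 50.2% of genes in 2-cell embryos, 38.5% in 4-cell embryos and 67.2% in blastocysts.

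IDI1 encodes the isomerase that balances the pair of five-carbon building blocks from which all isoprenoids are made. It was at 21.6, 20.8 and 18.8 FPKM in vitrified 2-cell embryos, against 15.7, 16.6 and 19.4 FPKM in fresh ones. The 4-cell levels were 8.04, 12.4 and 32.0 FPKM in vitrified libraries, against 9.61, 11.6 and 25.2 FPKM in fresh libraries. In blastocysts it reached 432, 538 and 319 FPKM in the vitrified group, against 313, 315 and 385 FPKM in the fresh group. At the 4-cell stage replicate 3 was the highest library of both groups, and in blastocysts the ranges overlapped. With a median of 352 FPKM, IDI1 ranked 250 among 7606 genes in blastocysts, above 96.7% of them, and above 64.2% of genes in 4-cell embryos.

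SQLE encodes squalene epoxidase, the first oxygen-dependent step of sterol synthesis and a point of control after HMG-CoA reductase. It was at 55.3, 74.0 and 63.0 FPKM in vitrified 2-cell embryos, against 90.3, 64.1 and 74.1 FPKM in fresh ones. The 4-cell libraries held 4.72, 17.3 and 1.81 FPKM after vitrification, against 0.609, 6.32 and 19.6 FPKM in fresh embryos. Blastocysts held 55.5, 12.9 and 10.2 FPKM in the vitrified group, against 78.1, 11.6 and 57.2 FPKM in the fresh group. Every 4-cell library lay below every 2-cell library, and blastocysts split into 3 libraries at 55.5 FPKM or more and 3 at 12.9 FPKM or less, with both groups on both sides. At the 2-cell stage SQLE stood above 90.0% of genes, and in 4-cell embryos above 44.6%.

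DHCR7 encodes the reductase that turns 7-dehydrocholesterol into cholesterol, the last step of a main route. In 2-cell embryos it did not exceed 0.12 FPKM in any library, and 4 of 6 4-cell libraries listed it at 0.0001, the value that the tables hold in place of 0. In blastocysts it was at 25.1, 10.8 and 10.8 FPKM in the vitrified group, against 18.6, 12.1 and 20.2 FPKM in the fresh group. The blastocyst groups overlapped, and each of the 6 blastocysts lay far above every earlier library.

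SREBF2, the regulator of the pathway, was the lowest of the set in blastocysts, at 0.741, 0.969 and 0.914 FPKM in the vitrified group, against 2.14, 0.717 and 0.950 FPKM in the fresh group. Fresh blastocyst 1 was the only library above 1 FPKM. In 2-cell embryos SREBF2 was at 0.25 to 0.38 FPKM after vitrification, against 0.28 to 0.82 FPKM in fresh embryos, and in 4-cell embryos at 0.07 to 0.38 FPKM, against 0.11 to 0.35 FPKM. It did not reach the filter of 1 FPKM in 3 libraries at any stage and was not tested.

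INSIG1, the sterol-responsive anchor of the SREBP and SCAP complex, was at 0.511, 0.447 and 0.877 FPKM in vitrified 2-cell embryos, against 0.950, 0.941 and 1.27 FPKM in fresh ones. All 3 vitrified libraries were below all 3 fresh ones, but these levels were under the filter and were not tested. In 4-cell embryos it was at 0.57 FPKM or less in every library. In blastocysts it was at 17.7, 8.65 and 8.35 FPKM in the vitrified group, against 11.4, 10.6 and 8.42 FPKM in the fresh group, with overlapping ranges.

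The first comparison asked how vitrification of the zygote changed these genes at each later stage. It used limma, a linear model fitted across all genes over the filter at that stage, on log2(FPKM + 1), a scale that understates changes of genes near 1 FPKM. A gene was called where the unadjusted p was under 0.05 and the log2 difference over 1 in size, the threshold of the study's methods, and p-values adjusted over all genes tested by the method of Benjamini and Hochberg are given beside them.

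In 2-cell embryos HMGCS1, IDI1 and SQLE were tested and 0 of 3 were called, nor did any reach an unadjusted p under 0.05, where 0.45% of the 8449 genes tested were called in either direction. The log2 difference, vitrified minus fresh, was -0.10 for HMGCS1 (95% interval -0.90 to 0.70), 0.23 for IDI1 (-0.19 to 0.66) and -0.24 for SQLE (-0.71 to 0.23). None of the 3 had groups that did not overlap, against 9.44% of all genes tested. All 3 intervals lay within 1 in either direction.

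In 4-cell embryos the same 3 genes were tested and 0 were called or under an unadjusted p of 0.05, where 3.46% of 8769 genes were called. The differences were -0.57 for HMGCS1 (-1.69 to 0.54), 0.06 for IDI1 (-1.30 to 1.42) and 0.09 for SQLE (-2.06 to 2.25). These intervals were wide, and each reached past a difference of 1 in at least 1 direction. No gene of the set had groups that did not overlap, against 11.1% of all genes. Without vitrified library 3 the differences were -0.15 for HMGCS1, -0.47 for IDI1 and 0.72 for SQLE, and again 0 were called. The 4-cell libraries were taken as paired by replicate number from the data, not from the labels, and the differences above do not use this pairing. With the number as a block 0 were called, while the count over all genes was 486 against 303 without it.

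In blastocysts HMGCS1, IDI1, SQLE, DHCR7 and INSIG1 were tested and 0 of 5 were called or under an unadjusted p of 0.05, where 2.26% of 7833 genes were called. The differences were 0.69 for HMGCS1 (-0.32 to 1.71), 0.32 for IDI1 (-0.19 to 0.83) and -0.91 for SQLE (-2.78 to 0.95). They were -0.19 for DHCR7 (-1.01 to 0.63) and 0.10 for INSIG1 (-0.59 to 0.79), and that of INSIG1 turned to -0.09 under quantile normalization and to -0.05 under median ratio scaling. No gene of the set had groups that did not overlap, against 22.6% of all genes. The smallest adjusted p of the set, by limma, was 0.483 for HMGCS1. Without fresh blastocyst 2, SQLE alone was called, at -1.72 with an unadjusted p of 0.0358 and an adjusted p of 0.461 by limma.

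**Figure D2:**
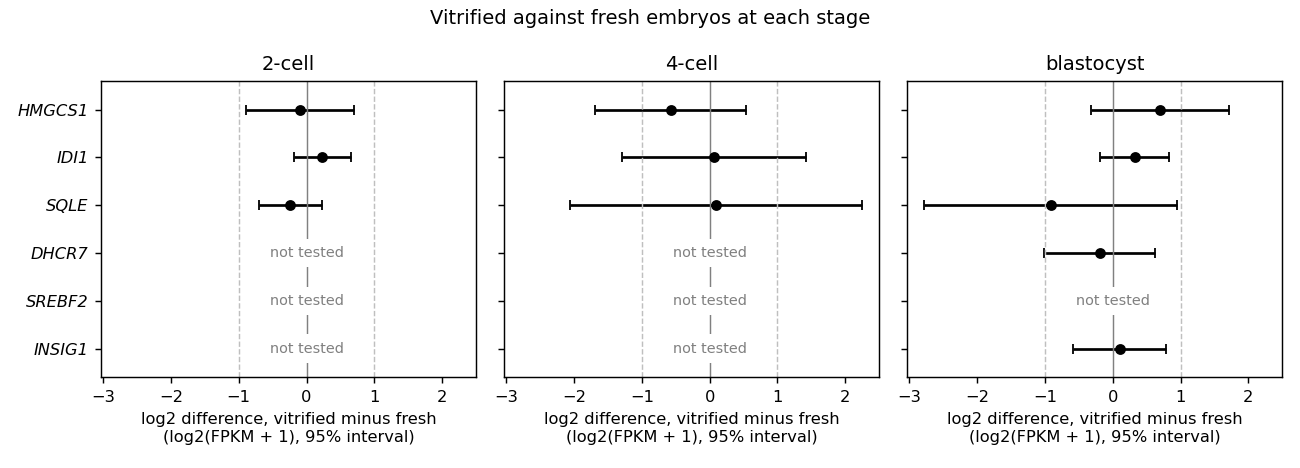
Log2 difference of log2(FPKM + 1), vitrified minus fresh, for each gene at the 2-cell, 4-cell and blastocyst stage, with 95% intervals from limma over 3 vitrified and 3 fresh libraries; dashed lines mark differences of 1 in either direction, and genes under the filter are marked as not tested. Every interval crosses 0, and those of SQLE run from -2.06 to 2.25 in 4-cell embryos and from -2.78 to 0.95 in blastocysts.

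Marker genes of the blastocyst cell types differed between the groups in both directions. The 5 trophectoderm markers summed to 1947 to 3349 FPKM in vitrified blastocysts, against 3549 to 3939 FPKM in fresh ones, a sum made up almost wholly of KRT8, whose groups overlapped, and KRT18, at 1322 to 1918 FPKM in vitrified blastocysts, against 2118 to 2471 FPKM in fresh ones. CDX2 was also below fresh blastocysts without overlap, while GATA3 (30.4 to 31.5 FPKM in vitrified blastocysts, against 22.3 to 25.1 FPKM in fresh ones) and TFAP2C (28.9 to 35.2 FPKM, against 13.7 to 25.5 FPKM) were above them. The list thus did not move together. Of the 4 hypoblast markers, which summed to 20.7 to 23.7 FPKM in vitrified blastocysts, against 15.3 to 18.2 FPKM in fresh ones, GATA6 made up most of the sum and lay above (18.6 to 22.7 FPKM, against 12.0 to 16.0 FPKM), PDGFRA lay below (0.0001 to 1.07 FPKM, against 1.29 to 2.59 FPKM), GATA4 overlapped, and SOX17 was listed at 0.0001 in all vitrified blastocysts, against at most 0.34 FPKM in fresh ones. The part of these markers in the blastocyst values was not tested.

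Whether the effect of vitrification differed between stages was tested as an interaction in a fit over all 18 libraries, called at an adjusted p under 0.05. Between the 4-cell and 2-cell stage 0 of 5 genes of the set were called, where 0.0176% of 11361 genes were. Of these 5, DHCR7 and INSIG1 were under the filter at both of these stages and entered the fit only through the blastocysts. This contrast could therefore hardly show a change of theirs. Between the blastocyst and 4-cell stage 0 were called, where 0.0264% of genes were, and between the blastocyst and 2-cell stage 0, where 0.0176% were. The smallest p was that of HMGCS1, whose difference between vitrified and fresh embryos was 1.27 higher on the log2 scale in blastocysts than in 4-cell embryos (-0.09 to 2.63), with an unadjusted p of 0.0648 and an adjusted p of 0.468 by limma. No gene of the set reached an unadjusted p under 0.05 in any of these 3 contrasts. Without vitrified 4-cell library 3 the value between the blastocyst and 4-cell stage was 0.84 for HMGCS1 and -1.63 for SQLE, the SQLE value being -1.01 with all libraries.

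The second comparison followed the genes over the stages within each treatment, in the same fit, with calls at an adjusted p under 0.05 and a log2 difference over 1. DHCR7 and INSIG1 passed the filter of this fit only through the blastocysts, so that a difference was built into their passing and their calls describe the levels given above. Each step between stages also changes the number of embryos in a library, which cannot be told apart from the stage.

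From the 2-cell to the 4-cell stage SQLE was the gene of the set that changed. It was lower in 4-cell embryos, with a log2 difference of -3.28 ± 0.87 (SE, adjusted p = 0.0120 by limma) in the vitrified series and of -3.62 ± 0.87 in the fresh series (adjusted p = 0.0147). By mean FPKM the 4-cell level was 0.124 times the 2-cell level in vitrified embryos and 0.116 times in fresh embryos. Among all genes, 10.9% were called lower and 9.08% higher in the vitrified series, and 3.71% lower and 4.81% higher in the fresh series. The call rested on single libraries: the adjusted p was 0.0574 at -2.66 without vitrified 4-cell library 3, 0.060 at -3.49 without fresh 2-cell library 1 and 0.0839 at -2.64 without fresh 4-cell library 1.

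The other genes of the set were not called at this step. HMGCS1 had a difference of -1.02 in the vitrified series (-1.98 to -0.06, adjusted p = 0.113 by limma) and of -0.54 in the fresh series (-1.50 to 0.42). IDI1 had -0.43 (-1.29 to 0.43) in vitrified and -0.26 (-1.12 to 0.60) in fresh embryos. Without vitrified 4-cell library 3 the vitrified differences were -0.59 for HMGCS1 and -0.96 for IDI1, and again neither was called. INSIG1 had -0.41 in vitrified embryos and -0.86 in fresh embryos, the second with an adjusted p of 0.0571 by limma. It was under the filter at both of these stages and entered the fit only through the blastocysts, so these values describe levels near the floor.

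From the 4-cell stage to the blastocyst, IDI1 rose in both series. Its difference was 4.73 ± 0.41 (SE) in vitrified embryos (adjusted p = 3.33e-08 by limma) and 4.47 ± 0.41 in fresh embryos (adjusted p = 4.95e-08), and mean FPKM was 24.6 and 21.8 times that of 4-cell embryos. DHCR7 had 3.90 in vitrified and 4.05 in fresh embryos, and INSIG1 had 3.30 in both, all called. HMGCS1 was called in vitrified embryos, at 1.86 (0.90 to 2.82, adjusted p = 0.00165 by limma), and not in fresh embryos, at 0.59 (-0.37 to 1.55, adjusted p = 0.249). SQLE was called in fresh embryos, at 2.64 (0.81 to 4.46, adjusted p = 0.0118 by limma), and not in vitrified embryos, at 1.63 (-0.20 to 3.46, adjusted p = 0.105).

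Neither of these last pairs of values passed the test of the difference, which was 1.27 for HMGCS1 as given above and -1.01 for SQLE (-3.59 to 1.58, adjusted p = 0.784 by limma). The call of HMGCS1 in fresh embryos appeared under quantile normalization, at 1.295, and under median ratio scaling, at 1.31, as it did for SQLE in vitrified embryos, at 1.87 and 2.03. The call of SQLE in fresh embryos was lost without fresh 4-cell library 1, at 1.66 with an adjusted p of 0.0893, and without fresh blastocyst 1, at 2.12 with an adjusted p of 0.0617. Without vitrified 4-cell library 2, SQLE was called in vitrified embryos, at 2.36, and without fresh blastocyst 1 HMGCS1 was called in fresh embryos, at 1.07. Without vitrified 4-cell library 3 the vitrified differences were 5.26 for IDI1, 1.43 for HMGCS1 and 1.01 for SQLE, with IDI1 and HMGCS1 still called.

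Calls were common at this step: 24.6% of 11361 genes were called higher and 33.9% lower in the vitrified series, and 23.9% higher and 38.6% lower in the fresh series, and the median gene moved by -0.38 and -0.56. With quantile normalization the fresh split was 3434 higher and 3546 lower, against 2712 and 4385 as deposited. Of the 5993 genes that passed the filter at both stages on their own, 25.1% were called higher and 31.3% lower in vitrified embryos, and 22.9% higher and 35.6% lower in fresh embryos. HMGCS1, IDI1 and SQLE passed at both stages, and 2 of 3 were called higher in each series, HMGCS1 and IDI1 in vitrified embryos and IDI1 and SQLE in fresh ones.

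Beside the set, 17 further enzymes of the pathway were listed and all had a row. The levels of the pathway in its order show that the early stages held much of a few enzymes and little of the rest. FDFT1, squalene synthase, was the highest of them in 2-cell embryos, at a median of 499 FPKM, and in 4-cell embryos, at 342 FPKM, and had 23.5 FPKM in blastocysts, where EBP was highest at 95.5 FPKM. HSD17B7, a 3-ketosteroid reductase of the C4 demethylation complex, had medians of 165, 82.3 and 30.3 FPKM over the same stages. MVD, the decarboxylase that yields isopentenyl diphosphate, had medians of 0.16 FPKM in 2-cell embryos, 0.0001 FPKM in 4-cell embryos and 45.4 FPKM in blastocysts, and PMVK, the kinase before it, 0.31, 0.50 and 25.9 FPKM.

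**Figure D3:**
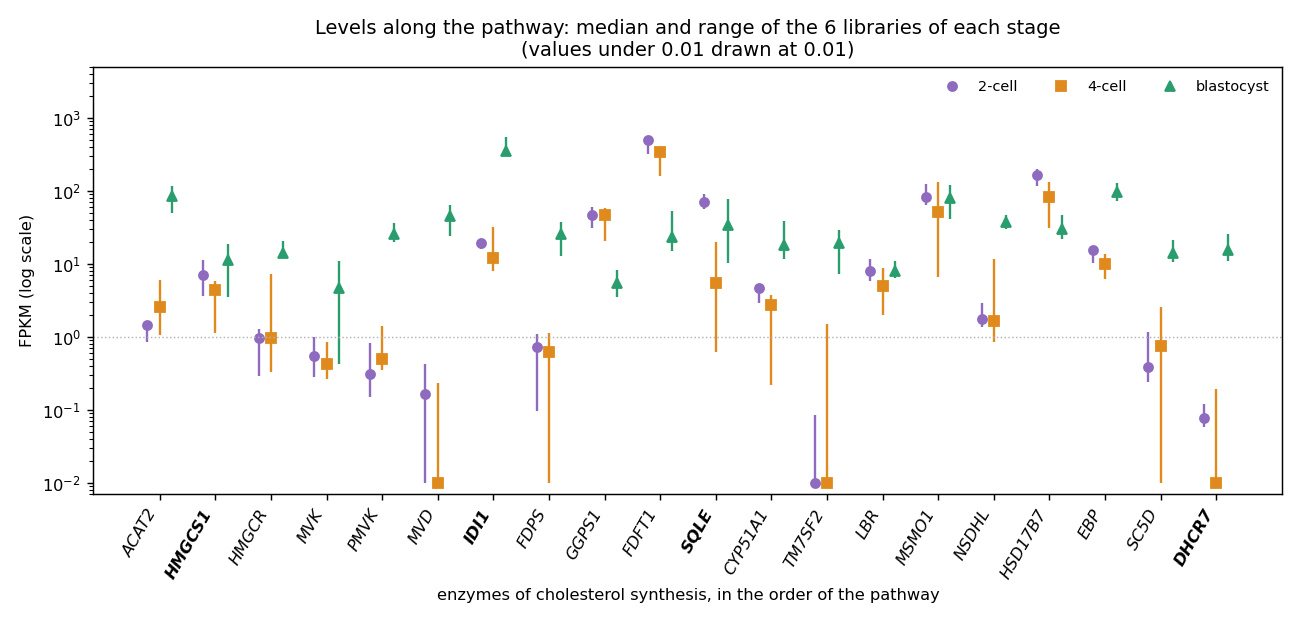
Median (symbol) and range (line) of FPKM on a log axis over the 6 libraries of each stage, vitrified and fresh together, for enzymes of cholesterol synthesis in the order of the pathway, with the geranylgeranyl branch enzyme GGPS1 after FDPS and the genes of the set in bold; values under 0.01 are drawn at 0.01. FDFT1, GGPS1 and HSD17B7 lie lower in blastocysts than before, with medians of 23.5, 5.43 and 30.3 FPKM, while IDI1 lies highest there, at 352 FPKM.

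Between vitrified and fresh embryos, 0 of 11 of these enzymes tested were called in 2-cell embryos, 1 of 10 in 4-cell embryos and 0 of 17 in blastocysts, where 0.45%, 3.46% and 2.26% of all genes tested were called at these stages. The one called was HSD17B7, lower in vitrified 4-cell embryos at 39.8, 79.3 and 30.3 FPKM, against 96.1, 130 and 85.4 FPKM in fresh ones, with a difference of -1.14 and an adjusted p of 0.947 by limma. The vitrified values were all below the fresh ones, but without vitrified library 3 the difference was -0.85 and HSD17B7 was not called. Without that library MSMO1, the C4 sterol methyl oxidase, was called higher instead, at 1.25 with an adjusted p of 0.600 by limma, against -0.06 with all libraries. The median difference of the list was -0.05, -0.12 and 0.16 in 2-cell embryos, 4-cell embryos and blastocysts, beside -0.05, -0.16 and 0.11 for all genes tested. In blastocysts 5 of 17 had all vitrified libraries above all fresh ones and none the reverse, against 1355 of 7833 genes above and 413 below.

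SC5D, the desaturase that makes 7-dehydrocholesterol, had the smallest p of these in blastocysts. It was at 21.0, 18.5 and 16.1 FPKM in vitrified blastocysts, against 10.6, 10.7 and 11.8 FPKM in fresh ones, and was named after its values were seen. The groups did not overlap, but the difference of 0.69 (0.28 to 1.102, unadjusted p = 0.00491) was under the threshold of 1, with an adjusted p of 0.151 by limma.

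From the 4-cell stage to the blastocyst, 12 of 17 enzymes were called higher and 2 lower in vitrified embryos, and 12 higher and 3 lower in fresh embryos, where 24.6% of all genes were called higher and 33.9% lower in vitrified embryos, and 23.9% and 38.6% in fresh embryos. Their median difference was 3.25 in vitrified and 2.50 in fresh embryos, beside -0.38 and -0.56 for all genes. Several of these had passed the filter only through the blastocysts. Of the 10 that passed at both stages on their own, 5 were called higher and 2 lower in vitrified embryos, and 5 higher and 3 lower in fresh embryos, with median differences of 1.59 and 1.14, beside -0.16 and -0.38 for all such genes, of which 25.1% were called higher and 31.3% lower in vitrified embryos, and 22.9% and 35.6% in fresh embryos. Those lower were FDFT1 (-3.20 in vitrified and -3.68 in fresh embryos) and GGPS1 (-2.35 and -3.14), and in fresh embryos also HSD17B7 (-1.83). ACAT2, which makes acetoacetyl-CoA and passed at both stages, had 4.36 and 4.57. MVD had 5.32 and 5.59 and PMVK 4.03 and 4.20, but both passed the filter only through the blastocysts, so that these calls were built into their passing.

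**Figure D4:**
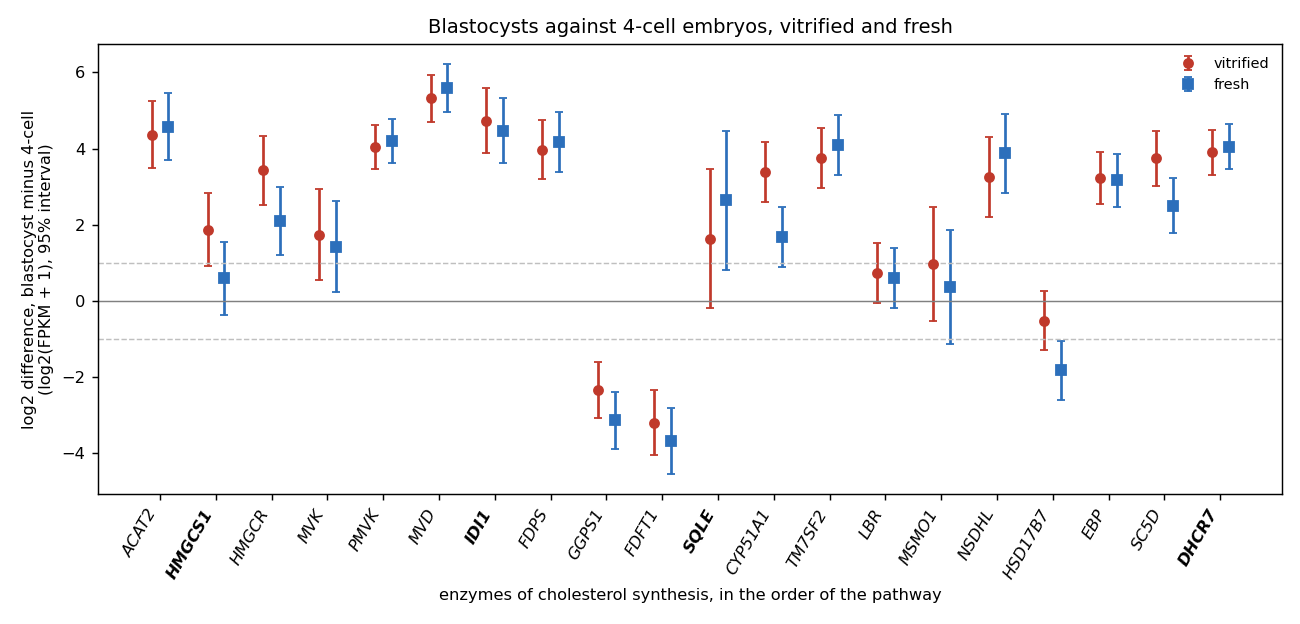
Log2 difference of log2(FPKM + 1), blastocyst minus 4-cell, with 95% intervals from limma, for enzymes of cholesterol synthesis in the order of the pathway, vitrified embryos as circles left of fresh embryos as squares, the genes of the set in bold; dashed lines mark 1 in either direction. IDI1 stands at 4.73 and 4.47 and DHCR7 at 3.90 and 4.05, while FDFT1 stands at -3.20 and -3.68.

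The 11 further regulators with a row, of 12 listed, were mostly sensors and proteases of the SREBP system, ubiquitin ligases of its degradation branch and the sterol-responsive LXR receptors. In 2-cell embryos 1 of 9 tested was called, where 0.45% of all genes were: NR1H3, which encodes LXR alpha. It was lower in vitrified embryos at 1.18, 1.93 and 2.44 FPKM, against 8.97, 7.86 and 2.10 FPKM in fresh ones, with a difference of -1.22 and an adjusted p of 1.00 by limma. These groups overlapped, and fresh libraries 1 and 2 were the highest. In 4-cell embryos 0 of 9 and in blastocysts 0 of 10 were called, where 3.46% and 2.26% of all genes were. In 2-cell embryos 3 of 9 had all vitrified libraries below all fresh ones and 0 above, where 9.44% of all genes did not overlap. In 4-cell embryos 0 of 9 were without overlap, where 11.1% of all genes were. In blastocysts 2 of 10 lay above and 1 below, where 22.6% of all genes did not overlap.

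Over the step to the blastocyst, SCAP, which carries SREBP to the Golgi, had 1.35 in vitrified and 2.17 in fresh embryos. SREBF1, a relative of SREBF2 with a role in fatty acid synthesis, had 1.17 in vitrified embryos and stayed under 2 FPKM in every blastocyst. Both passed the filter only through the blastocysts, so that their calls were built into their passing. The ubiquitin ligase gene RNF139 (-2.07 in vitrified and -3.18 in fresh embryos), the site-2 protease gene MBTPS2 (-1.46 and -2.43) and INSIG2 (-1.56 in vitrified embryos) were called lower in both. INSIG1 and INSIG2 ran in opposite directions: INSIG2 had medians of 18.1 FPKM in 2-cell embryos, 17.8 FPKM in 4-cell embryos and 4.24 FPKM in blastocysts, where INSIG1 had 0.91, 0.14 and 9.65 FPKM.

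Of 17 genes of uptake and traffic, 7, 8 and 9 were tested between vitrified and fresh 2-cell embryos, 4-cell embryos and blastocysts. At no stage was any called, where 0.45%, 3.46% and 2.26% of all genes were. SCARB1, which the study names as down-regulated in vitrified blastocysts, was at 1.08, 0.617 and 0.521 FPKM there, against 1.60, 1.52 and 2.39 FPKM in fresh ones. Its groups did not overlap, but its difference of -0.71 on log2(FPKM + 1) was under 1 in size. In blastocysts 1 of 9 of this list lay above and 1 below without overlap, where 22.6% of all genes did not overlap. The gene with the highest level acts after uptake. NPC2, which takes cholesterol from lysosomal lipid to the membrane protein NPC1, was at 2060, 1195 and 1104 FPKM in vitrified blastocysts, against 1741, 1011 and 1273 FPKM in fresh ones, and at 11.1 FPKM or less in every earlier library.

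NPC2 rose to the blastocyst by a log2 difference of 7.12 in vitrified and 7.62 in fresh embryos, and NPC1 by 4.56 and 4.42. LIPA, the lysosomal acid lipase that frees cholesterol from its esters, had -2.47 in vitrified and -2.45 in fresh embryos, a call built into its passing the filter through the earlier stages, with a blastocyst median of 0.66 FPKM against 8.26 FPKM in 4-cell embryos. At the step before, in vitrified embryos, NPC1 was called lower (-1.58), as was MYLIP, a ubiquitin ligase of lipoprotein uptake (-1.26). NPC2 (1.52), LIPA (1.07) and STARD4, a cytosolic sterol carrier (2.04), were called higher. STARD4 reached 1 FPKM in 1 of 6 2-cell libraries and passed the filter through the later stages, so that its call was built into its passing. Without vitrified 4-cell library 3 the calls of MYLIP (-1.08) and STARD4 (1.24) were lost. In fresh embryos MYLIP was called lower (-1.54) and 0 of 13 tested were called higher, where 3.71% of all genes were called lower and 4.81% higher. In vitrified embryos 3 of 13 were called higher and 2 lower, where 9.08% of all genes were called higher and 10.9% lower. The higher 4-cell level of STARD4 was not particular to the vitrified series: its fresh difference was 2.14, though not called. Fresh levels were 0.0211, 1.06 and 0.540 FPKM in 2-cell embryos, against 2.27, 2.42 and 24.0 FPKM in 4-cell embryos.

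Of 10 genes of efflux and storage, 1 of 4 tested was called in 4-cell embryos, where 3.46% of all genes were, and 0 of 3 in 2-cell embryos and in blastocysts, where 0.45% and 2.26% were. The gene called was ABCA1, the exporter that loads cholesterol onto apolipoprotein A-I, at 0.642, 1.103 and 0.0362 FPKM in vitrified 4-cell embryos, against 3.32, 1.24 and 1.99 FPKM in fresh ones, with no overlap (difference -1.01, adjusted p = 0.947 by limma). Without vitrified library 3 its difference was -0.72 and it was not called. SOAT1, which esterifies cholesterol for storage, rose to the blastocyst by 4.45 in vitrified and 3.83 in fresh embryos, to a median of 78.3 FPKM. ABCG5, a sterol exporter, had -1.99 in vitrified and -2.38 in fresh embryos, but reached 1 FPKM in 0 of 6 blastocysts and passed the filter only through the earlier stages, so that this call was built into its passing.

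Among single blastocysts, SQLE and DHCR7 were uneven in the same libraries. Vitrified blastocyst 1 and fresh blastocysts 1 and 3 held the 3 highest values of both genes, 55.5, 78.1 and 57.2 FPKM of SQLE and 25.1, 18.6 and 20.2 FPKM of DHCR7. This pattern was noticed after the values were seen and is given as a description. The same 3 libraries were highest for 8 of 17 further enzymes, among them ACAT2, MVD, FDPS, FDFT1, NSDHL, HSD17B7 and EBP, against 6.18% of 7833 genes tested in blastocysts. EBP, the sterol isomerase, was at 129, 78.9 and 82.5 FPKM in vitrified blastocysts, against 123.3, 72.0 and 109 FPKM in fresh ones. HMGCS1, IDI1 and INSIG1 did not share it: fresh blastocyst 1 was the lowest of 6 for HMGCS1 and for IDI1.

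**Figure D5:**
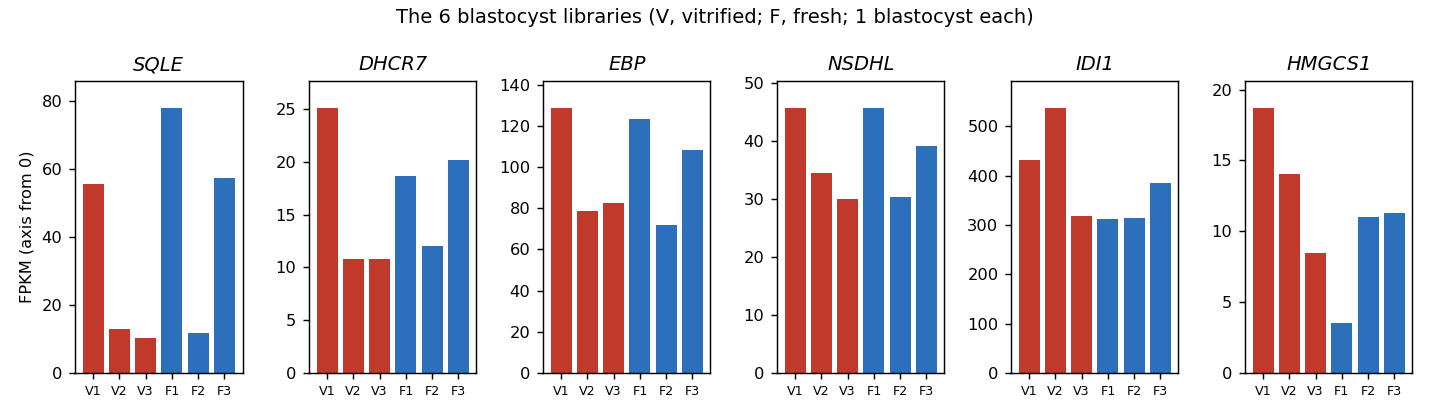
FPKM of SQLE, DHCR7, EBP, NSDHL, IDI1 and HMGCS1 in the 6 blastocyst libraries, vitrified 1 to 3 (V) left of fresh 1 to 3 (F), each bar a single embryo and each axis from 0. V1, F1 and F3 are the 3 highest bars for SQLE (55.5, 78.1 and 57.2 FPKM), DHCR7, EBP and NSDHL, and not for IDI1 or HMGCS1.

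The genes whose pattern over the 18 libraries was most like each gene of the set were found among 10051 candidates outside the lists, by Pearson r of log2(FPKM + 1). These libraries share stages, so that any gene with the same stage pattern scores high, and r is a description. IDI1 was most like GPD1L (r = 0.988) and DBNL (0.987), DHCR7 most like PNPLA3 (0.998) and C1orf210 (0.997), and INSIG1 most like CLN6 (0.983) and CLN8 (0.982). SQLE was most like PXMP4 (0.911) and CBR4 (0.882), with their own dip in 4-cell embryos at medians of 1.08 and 1.74 FPKM. HMGCS1 had the least close partners, VPS36 (0.855) and IDH1 (0.838).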

How the data were processed

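RNA-seq libraries of vitrified and fresh cloned pig embryos at 3 stages were used, 3 per group. The study's methods name SMART-Seq v4 cDNA, while the protocol in the labels describes small RNA libraries. The deposited FPKM values were computed by the authors with StringTie after Cutadapt, Bowtie2 and HISAT2; versions, build and annotation release are not given in the sources used here. The deposited tables also hold the authors' fold ratio, log2 fold change and p-value columns, which were not used. The value 0.0001 stands where nothing was found, low values showed no whole-read steps, and 0 sample columns were unmatched.

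The 3 tables were joined by gene ID. Of 6907 genes without a symbol in their own column, 951 were named by the reference table (Sscrofa11.1), used for names only. Genes with at least 1 FPKM in 3 libraries were tested with limma 3.58.1 (trend) in R 4.3.3 on log2(FPKM + 1), p-values adjusted by Benjamini and Hochberg over all genes tested. Between treatments each stage was fitted alone and called at an unadjusted p under 0.05 and a log2 difference over 1; between stages and for interactions, 6 group means were fitted over 18 libraries and called at an adjusted p under 0.05, with a log2 difference over 1 for stages. Scripts were tested on simulated data. The labels give replicate numbers in all groups: deviations of same-numbered vitrified and fresh libraries correlated at 0.224, 0.369 and 0.416 in 4-cell embryos, which were taken as paired from the data, at -0.112 to 0.113 in 2-cell embryos and 0.000278 to 0.248 in blastocysts, which were not. Replicates are stated to be biological.

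Named were all genes of the set; of each other list up to 4 called in a comparison by smallest p, plus that with the highest mean; and the 2 genes of most similar pattern for each. Genes outside this rule were named for their role or after their values were seen. Some genes of the lists enter the counts and are not reported here by name. The genes of the set and the lists were chosen with earlier results of these data known. Alternatives were a pseudocount of 0.1, no filter, quantile and median ratio scaling, array weights, fits of only the groups compared, the replicate block and leaving out each library. Sequences and promoter motifs were not analysed here. Figures used matplotlib 3.10.9.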

Additional observations from a re-analysis of the deposited data

Results flagged for a closer look

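CYP51A1, the lanosterol demethylase, was looked at again because its vitrified and fresh libraries did not overlap at 2 stages and lay in opposite orders. It was at 2.44, 2.43 and 0.221 FPKM in vitrified 4-cell embryos, against 3.65, 3.04 and 3.74 FPKM in fresh ones, and at 38.2, 19.0 and 19.4 FPKM in vitrified blastocysts, against 12.1, 11.6 and 16.6 FPKM in fresh ones. Its difference between vitrified and fresh embryos was 1.70 higher on the log2 scale in blastocysts than in 4-cell embryos (0.58 to 2.82), with an unadjusted p of 0.00510 and an adjusted p of 0.264 by limma, so it did not pass the test of the difference. Its lowest 4-cell value was that of vitrified library 3, without which the 4-cell difference between vitrified and fresh embryos was -0.38 and the difference between stages 1.204, with an adjusted p of 0.208 by limma. GRAMD1C, a carrier of cholesterol between membranes, met the same description, with a value of 0.87 (0.30 to 1.43, adjusted p = 0.263 by limma), or 0.86 without that library. Its 4-cell levels were 0.0001 to 0.0501 FPKM in vitrified embryos, against 0.0992 to 0.664 FPKM in fresh ones, all under the filter, and its blastocyst levels 1.76 to 2.52 FPKM in vitrified embryos, against 1.00 to 1.33 FPKM in fresh ones. No gene of the set was looked at again on these grounds, and with 3 libraries per group no library was tested for standing apart within its group.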

How the results depend on the processing

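Of 187 fold changes of the set under settings other than leaving out a library, 176 kept their direction and their side of the threshold, as did 165 of 186 with a library left out. Vitrified against fresh, 0 genes of the set were called in 2-cell or 4-cell embryos under any alternative, and 0 to 1 in blastocysts with a library left out. From the 2-cell to the 4-cell stage, the count of 1 became 0 without a filter in both series (SQLE, adjusted p = 0.0549 in vitrified and 0.0695 in fresh embryos by limma) and 2 in fresh embryos with a pseudocount of 0.1 (INSIG1 at -2.48), and was 0 to 1 with a library left out in each series. INSIG1 was under the filter at both of these stages, so that call compares levels near the floor. The call of SQLE from the 4-cell stage to the blastocyst in fresh embryos was lost without a filter (adjusted p = 0.0509). The cause of these changes was not tested, other than that leaving the filter out adds genes and leaving out a library removes a sample.

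The uncalled differences between vitrified and fresh embryos that changed sign were HMGCS1 in 2-cell embryos (0.00051 with quantile normalization; -0.53 to 0.18 with a library left out), IDI1 (-0.47 to 0.47) and SQLE (-0.88 to 0.96) in 4-cell embryos with a library left out, and INSIG1 in blastocysts (-0.089 and -0.050 with quantile and median ratio scaling; -0.22 to 0.28 with a library left out). From the 2-cell to the 4-cell stage in fresh embryos, DHCR7 ran from -0.11 to 0.023 and IDI1 from -0.65 to 1.44e-05 with a library left out. The replicate block changed no call of the set: SQLE from the 2-cell to the 4-cell stage had an adjusted p of 0.00889 with the block in vitrified and 0.0224 in fresh embryos.

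Counts over all genes moved more. Called genes between vitrified and fresh embryos were 38 in 2-cell embryos (99 with a pseudocount of 0.1, 25 without a filter, 46 to 124 with a library left out), 303 in 4-cell embryos (486 with the replicate block, 171 to 739 with a library left out) and 177 in blastocysts (363 with a pseudocount of 0.1, 167 to 303 with a library left out). The split of higher to lower was 15 to 23, 87 to 216 and 117 to 60 as deposited, and 21 to 13, 138 to 140 and 53 to 92 with quantile normalization. Called genes from the 2-cell to the 4-cell stage were 2266 in vitrified embryos (775 in a fit of those 6 libraries, 818 with the replicate block added, 1647 to 3315 with a library left out) and 968 in fresh embryos (510 without a filter, 464 to 952 with a library left out). Genes whose difference between vitrified and fresh embryos changed were 2 from the 2-cell to the 4-cell stage (12 with array weights, 0 to 73 with a library left out), 3 from the 4-cell stage to the blastocyst (44 with array weights, 2 to 104) and 2 from the 2-cell stage to the blastocyst (1 to 13). The values of other pathway genes without vitrified 4-cell library 3 were an alternative chosen after seeing the data. Depth is unknown, so levels under about 1 FPKM, as of SREBF2, cannot be given a precision.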
